A study of Homo sapiens with 12 samples.

Results

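Integrin subunit genes were followed across the hairpin groups and the RNA immunoprecipitations of a study in MDA-MB231 cells, a long-established human line of triple-negative breast cancer with mesenchymal features. Members were taken by gene symbol and linked between the deposited tables by Ensembl gene ID. The alpha subunit genes were ITGA2, ITGA3, ITGA5, ITGA6 and ITGAV, and the beta subunit genes were ITGB1, ITGB2, ITGB3, ITGB4 and ITGB5. These 10 genes stand among 27745 in the count table, and all 10 were among the 15026 genes with enough counts to be tested. The rule names the genes and uses no measured value, although it was drawn up with earlier results of these data known. RNA-seq compared cells with a stable lentiviral control hairpin (sh-control), a hairpin against TDP43 (sh-TDP43) and a hairpin against SRSF3 (sh-SRSF3), with 2 libraries per group. TDP43, encoded by TARDBP, and SRSF3 are RNA-binding proteins that take part in splicing. RNA immunoprecipitation (RIP) recovered the RNA held by Flag-TDP43 or Flag-SRSF3 from cells overexpressing the tagged protein, with 1 RIP library and 1 input library for each. The labels name 1 hairpin per target and do not say whether replicates were grown apart. The p-values therefore reflect variation among these libraries only, and that variation may be technical. A group carrying both hairpins is also labelled and was not analysed here, nor was any RIP from cells without a tag.

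Integrins are cell surface receptors made of an alpha and a beta subunit, and the pair decides which extracellular ligand is bound. ITGB1 pairs with many alpha subunits, including those that bind collagen (ITGA2), laminin (ITGA3 and ITGA6) and fibronectin (ITGA5 and ITGAV). ITGA6 also pairs with ITGB4, the laminin receptor of hemidesmosomes, and ITGAV pairs with ITGB3 and ITGB5 in receptors for vitronectin and other RGD-containing ligands. ITGB2 is the beta subunit of leukocyte integrins and pairs with ITGAL, ITGAM, ITGAX or ITGAD. In epithelial and breast cancer cells these receptors carry attachment, migration and survival signals from the matrix.

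The members lie apart in the genome, at GRCh37 positions given by the count table. ITGA2 spans chromosome 5 from 52285156 to 52390609 and ITGA5 spans chromosome 12 from 54789045 to 54813244. ITGA6 (173292082 to 173371010) and ITGAV (187454792 to 187545628) share chromosome 2. ITGA3 (48133332 to 48167845), ITGB3 (45331212 to 45389182) and ITGB4 (73717408 to 73753899) share chromosome 17. ITGB1 spans chromosome 10 from 33189247 to 33294720, ITGB2 spans chromosome 21 from 46305868 to 46351904, and ITGB5 spans chromosome 3 from 124480795 to 124620265. ITGB4 overlaps GALK1 on the opposite strand, whose highest count in a library was 1087. ITGB1 overlaps RP11-462L8.1, with a highest count of 218, and ITGB3 overlaps RP11-290H9.2, which had a count of 0 in every library. Counting used no strand, so reads of such partners cannot be told apart where they overlap.

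RefSeq promoter entries (GRCh38.p14) matched 6 of the 10 members, namely ITGA2, ITGA5, ITGA6, ITGAV, ITGB1 and ITGB5. ITGA6, ITGAV and ITGB1 had 2 entries each and ITGB5 had 3, and only the most upstream entry of a gene was used. The 250 bases before the transcription start are shown for 4 of them, the alpha subunit that fell most with SRSF3 knockdown (ITGA2), the alpha subunit that fell most with TDP43 knockdown (ITGA6), the alpha subunit that rose (ITGAV) and the most abundant beta subunit (ITGB1). Capitals mark GGGCGG, the core of a GC box, on either strand. The windows are chr5:52989102-52989351 on the + strand, chr2:172427086-172427335 on the + strand, chr2:186589806-186590055 on the + strand and chr10:32958231-32958480 on the − strand, in that order.
ITGA2: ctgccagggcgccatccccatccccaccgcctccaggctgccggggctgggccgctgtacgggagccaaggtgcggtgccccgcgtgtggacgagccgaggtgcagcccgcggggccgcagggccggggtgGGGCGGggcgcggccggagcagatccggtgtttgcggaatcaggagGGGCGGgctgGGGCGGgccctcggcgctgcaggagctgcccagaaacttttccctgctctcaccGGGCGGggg
ITGA6: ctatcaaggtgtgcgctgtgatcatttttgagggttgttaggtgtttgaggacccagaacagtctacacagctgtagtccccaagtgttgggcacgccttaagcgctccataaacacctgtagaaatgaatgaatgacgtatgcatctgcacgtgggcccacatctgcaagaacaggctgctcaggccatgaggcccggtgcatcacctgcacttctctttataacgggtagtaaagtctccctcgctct
ITGAV: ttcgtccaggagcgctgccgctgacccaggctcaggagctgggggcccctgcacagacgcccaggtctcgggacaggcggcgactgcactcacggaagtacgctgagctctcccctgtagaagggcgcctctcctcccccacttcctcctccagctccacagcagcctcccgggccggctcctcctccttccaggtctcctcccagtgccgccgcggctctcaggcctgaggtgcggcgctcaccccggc
ITGB1: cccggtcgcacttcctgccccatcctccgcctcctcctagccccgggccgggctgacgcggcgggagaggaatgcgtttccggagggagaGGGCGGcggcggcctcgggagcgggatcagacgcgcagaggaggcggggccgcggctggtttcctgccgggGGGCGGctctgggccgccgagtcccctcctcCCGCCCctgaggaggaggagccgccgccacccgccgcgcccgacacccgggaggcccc
GGGCGG was found 4 times for ITGA2, 3 times for ITGB1, 2 times for ITGB5, 1 time for ITGA5 and 0 times for ITGA6 and ITGAV. Of 35116 promoters of the same length, 42.6% hold it. TGANTCA, which covers the AP-1 site, was found 0 times in the 6 windows on either strand, and 6.57% of all promoters hold it. GC content ranged from 50.8% in ITGA6 to 78.4% in ITGB1. Such matches describe letters in this window only, and the other start sites of these genes were not searched.

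Counted reads per hairpin library ranged from 34457445 to 38326930. Levels are given as CPM, counts per 1e6 reads after TMM scaling between libraries. For TARDBP the level was 146 ± 30.8 CPM (SD, n = 2) in sh-control and 32.9 ± 2.23 (SD, n = 2) in sh-TDP43. It was at 105 ± 4.52 CPM (SD, n = 2) in sh-SRSF3. SRSF3 was at 431 ± 38.9 CPM (SD, n = 2) in sh-control, 62.9 ± 1.63 in sh-SRSF3 and 184 ± 5.01 in sh-TDP43, so each hairpin group also had a lower level of the other target. A list for a mesenchymal breast line held VIM, CD44, AXL, CAV1, LGALS1 and the epithelial keratin KRT18. These genes summed to between 6480 and 6800 CPM in sh-control, 4140 and 4350 in sh-TDP43 and 5630 and 6010 in sh-SRSF3. The sum was thus lower in both knockdowns, through genes that were only partly shared. Calls were made per gene (edgeR quasi-likelihood, adjusted p under 0.05), and the sum itself was not tested. In sh-TDP43 AXL (log2 change −1.91), CAV1 (−1.65), LGALS1 (−0.59) and VIM (−0.27) were lower and KRT18 (0.38) higher. CD44 (−0.18) did not pass there. In sh-SRSF3 CD44 (−1.04), LGALS1 (−0.54) and VIM (−0.32) were lower and CAV1 (0.57) and KRT18 (0.46) higher. AXL (−0.22) did not pass there. The part of these genes in the integrin changes was not tested. Luminal breast markers summed to between 235 and 311 CPM per library, most of it from KRT19. KRT19 had a mean of 276 CPM in sh-control, 288 in sh-TDP43 and 221 in sh-SRSF3. In sh-control GATA3 was at 10.9 CPM, EPCAM at 6.28, ESR1 at 0.498 and FOXA1 at 0.0538 (means). PGR was at 0 in sh-control and sh-TDP43. In such bulk libraries, fewer cells of a type and less RNA per cell cannot be told apart.

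In the control libraries ITGB1 and ITGA3 were the most abundant integrin mRNAs per length of exon. ITGB1 had 170 CPM per kilobase, ITGA3 116, ITGB4 66.0 and ITGA6 55.1. ITGA5 at 32.8, ITGA2 at 30.8 and ITGB5 at 24.3 CPM per kilobase followed, and libraries of these neighbours overlapped. ITGAV at 11.2 and ITGB2 at 8.77 CPM per kilobase were lower, and ITGB3 was lowest at 0.398, with read counts of 65 and 67. Every other pair of neighbours in this order was separate in both libraries. The inputs of the RIPs, which were normalised separately as FPKM and come from cells overexpressing a tagged protein, also had ITGB1 highest (125 in the Flag-TDP43 input and 173 in the Flag-SRSF3 input) and ITGB3 lowest (1.07 and 1.51).

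**Figure D1:**
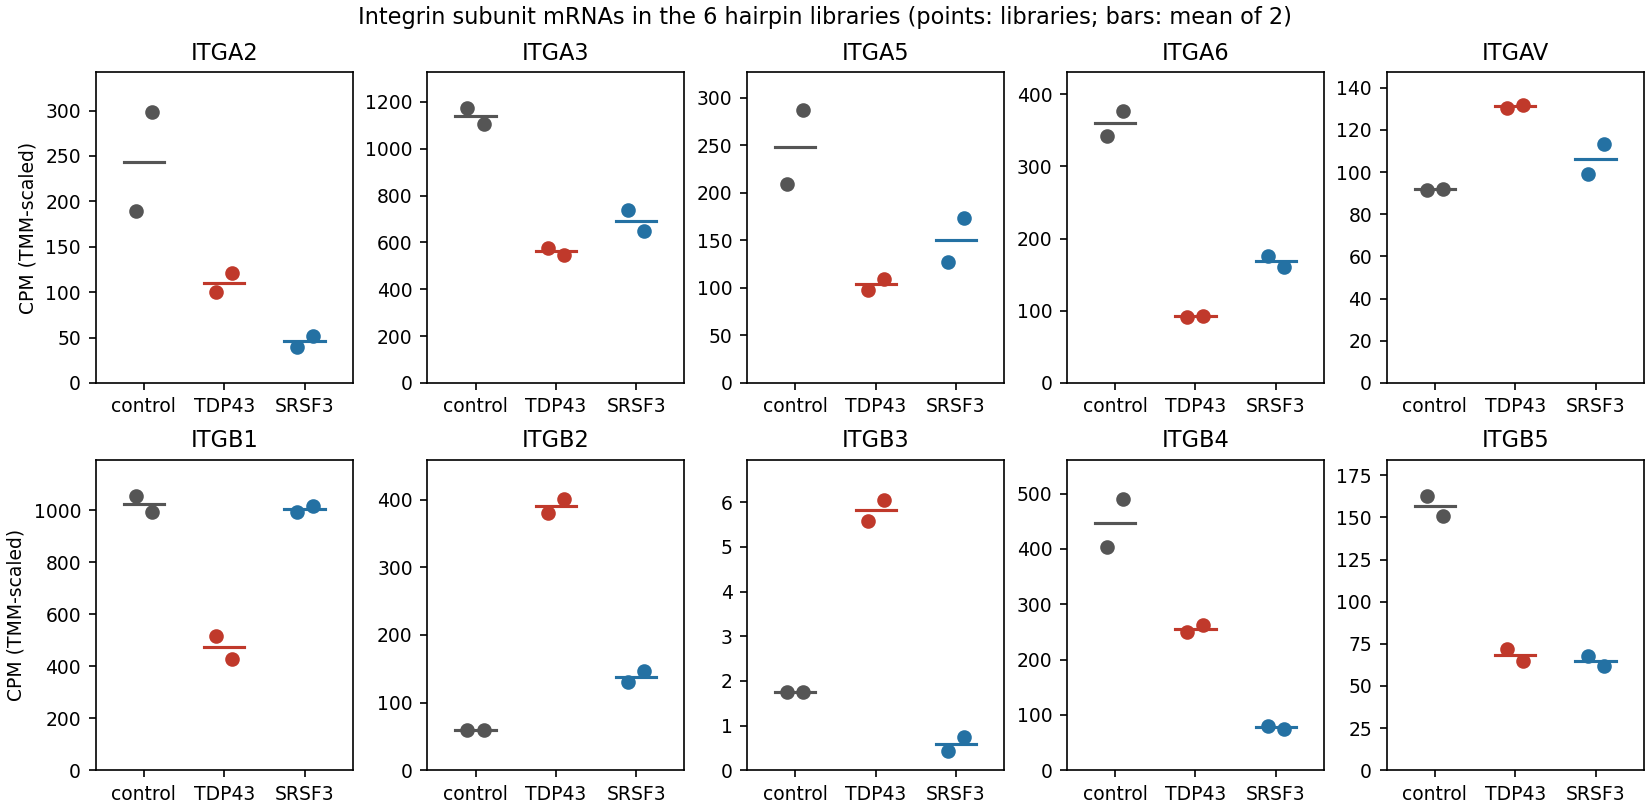
TMM-scaled CPM of each of the 10 integrin subunit mRNAs (one panel per gene, linear axes from 0) in sh-control, sh-TDP43 and sh-SRSF3; points are the 2 libraries of a group and bars their mean. ITGB2 stands at 381 and 401 CPM in sh-TDP43 against 59.3 and 59.9 in sh-control, while ITGB1 in sh-SRSF3 lies at the control level.

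The first comparison asked what TDP43 knockdown did to the integrin mRNAs. Most of them fell, with ITGA6 falling furthest, while ITGB2, ITGB3 and ITGAV rose. All 10 members passed the test (edgeR quasi-likelihood, adjusted p under 0.05), 3 higher and 7 lower, where 44.8% of all genes tested were called, 20.7% higher and 24.1% lower. At least 2-fold changes were called for 8 members and for 12.7% of all genes. Libraries of the groups did not overlap for 10 members, and for 73.2% of all genes. The median log2 change over the members was −1.07, beside −0.00 over all genes. With upper-quartile in place of TMM scaling, the calls over all genes went from 3105 higher and 3623 lower to 3956 higher and 2978 lower, and each member kept its direction and its call.

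Among the alpha subunits that pair with ITGB1, the laminin receptor subunit ITGA6 was at 342 and 377 CPM in sh-control and at 91.6 and 92.5 CPM in sh-TDP43. Both knockdown libraries were far below both controls. The log2 change was −1.97 (SE 0.10, edgeR quasi-likelihood adjusted p = 8.89e-09). ITGA3, the other main laminin-binding subunit, went from 1175 and 1105 CPM to 577 and 547 CPM, a log2 change of −1.02 (SE 0.10, adjusted p = 2.3e-06). ITGA5, the fibronectin receptor subunit, was at 209 and 288 CPM in sh-control and at 98.0 and 110 CPM in sh-TDP43. The ITGA5 groups were separate although the controls were far apart, and the log2 change was −1.26 (SE 0.15, adjusted p = 1.99e-05). ITGA2, the collagen receptor subunit, had the widest spread among the controls, 189 and 298 CPM, and stood at 100 and 121 CPM in sh-TDP43. Its log2 change was −1.14 (SE 0.18, adjusted p = 0.00014) and lay between −1.44 and −0.78 when single libraries were left out.

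The shared beta subunit ITGB1 was at 1056 and 994 CPM in sh-control and at 516 and 430 CPM in sh-TDP43. ITGB1 had a log2 change of −1.12 (SE 0.10, adjusted p = 1.71e-06 in edgeR's quasi-likelihood test), so the ITGB1 fall was close in size to those of ITGA2, ITGA3 and ITGA5. ITGB4, the hemidesmosome partner of ITGA6, went from 403 and 490 CPM to 249 and 263 CPM, a log2 change of −0.80 (SE 0.10, adjusted p = 3.16e-05). ITGB5, a partner of ITGAV, went from 163 and 151 CPM to 72.1 and 64.7 CPM, a log2 change of −1.20 (SE 0.10, adjusted p = 5.19e-07).

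ITGAV itself moved the other way from its partner ITGB5. It was at 91.6 and 92.1 CPM in sh-control and at 130 and 132 CPM in sh-TDP43, a log2 change of 0.51 (SE 0.09, edgeR quasi-likelihood adjusted p = 0.000541). ITGB3, its other vitronectin receptor partner, rose from 65 and 67 reads to 206 and 226 reads, or from 1.75 and 1.75 CPM to 5.59 and 6.04 CPM. The log2 change of ITGB3 was 1.73 (SE 0.28, adjusted p = 0.00023). ITGB3 remained the lowest member per length even after this 3.32-fold rise, at 1.32 CPM per kilobase.

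ITGB2 showed the largest rise of the members, from 59.3 and 59.9 CPM to 381 and 401 CPM. This was 6.56-fold (log2 change 2.71, SE 0.10, edgeR quasi-likelihood adjusted p = 1.53e-09), and placed ITGB2 beside ITGA3 in the per-length order of sh-TDP43, at 57.5 and 57.3 CPM per kilobase, where their libraries overlapped. The leukocyte alpha partners of ITGB2 were hardly counted in any hairpin library. The highest counts were 11 reads for ITGAL, 6 for ITGAM, 4 for ITGAX and 2 for ITGAD. The 9 leukocyte markers summed to between 63.2 and 75.7 CPM in sh-TDP43 and between 106 and 136 CPM in sh-control, most of it from LAPTM5, with 5 and 6 of the 9 under 1 CPM. CD3E and CD53 were at 0 in sh-control, and none of the 9 was at 0 in sh-TDP43. PTPRC, the common leukocyte phosphatase, was called higher at 2.80 and 1.23 CPM against 0.431 and 0.626 CPM, LCP1 was called higher (log2 change 0.79), and LAPTM5 (−1.14) and LYZ (−2.08) were called lower. The part of such transcripts in the ITGB2 rise was not tested. ITGB2-AS1, the antisense gene at the ITGB2 locus, was listed at 0 FPKM in the 4 RIP and input libraries. Those come from cells overexpressing a tagged protein, so they do not give its level in the hairpin libraries.

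The second comparison asked the same of SRSF3 knockdown, against the same control libraries. ITGB4 and ITGA2 fell most, ITGB2 rose, and ITGB1 was at the control level. The test called 1 member higher and 7 lower, where 66.9% of all genes tested were called, 32.5% higher and 34.4% lower. At least 2-fold changes were called for 6 members, with 31.7% among all genes. Libraries did not overlap for 9 members, and for 83.2% of all genes. The median log2 change over the members was −0.91, beside −0.03 over all genes. With upper-quartile scaling the calls over all genes went from 4881 higher and 5164 lower to 3959 higher and 6020 lower, and the median over all genes moved from −0.03 to −0.19.

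ITGB4 went from 403 and 490 CPM in sh-control to 79.8 and 75.2 CPM in sh-SRSF3. The fall was 5.76-fold (log2 change −2.53, SE 0.11, edgeR quasi-likelihood adjusted p = 4.89e-10). Its partner ITGA6 fell less, from 342 and 377 CPM to 176 and 161 CPM, a log2 change of −1.09 (SE 0.09, adjusted p = 1.89e-07). ITGA2 was at 39.8 and 51.4 CPM, below both controls, and fell 5.34-fold (log2 change −2.42, SE 0.18, adjusted p = 6.09e-08). ITGA2 and ITGB4 were the only members below a log2 change of −2 in this comparison.

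ITGA3 was at 737 and 648 CPM in sh-SRSF3, a log2 change of −0.72 (SE 0.10, edgeR quasi-likelihood adjusted p = 1.65e-05). ITGA5 was at 127 and 173 CPM, below both controls but with its own libraries far apart, with a change of −0.73 in log2 (SE 0.15, adjusted p = 0.000765). The ITGA5 change without the second control library was −0.48 (adjusted p = 0.00915). ITGB1, which joins both subunits at the cell surface, was at 995 and 1016 CPM, and both libraries lay between the controls at 1056 and 994 CPM. Its log2 change was −0.03 (SE 0.10, adjusted p = 0.824). With upper-quartile scaling the ITGB1 change was −0.18, beside the median of −0.19 over all genes.

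Among the ITGAV receptors, ITGB5 fell from 163 and 151 CPM to 67.9 and 62.1 CPM, a log2 change of −1.27 (SE 0.10, edgeR quasi-likelihood adjusted p = 6.61e-08). ITGAV was at 99.2 and 114 CPM, above both controls, and its log2 change of 0.21 (SE 0.09, adjusted p = 0.0594) did not pass the test. ITGB3 had 14 and 27 reads in sh-SRSF3, below the 65 and 67 of the controls, a log2 change of −1.57 (SE 0.34, adjusted p = 0.001). ITGB2 rose from 59.3 and 59.9 CPM to 130 and 146 CPM, a change of 1.21 in log2 (SE 0.10, adjusted p = 7.65e-08). The leukocyte markers summed to between 26.6 and 29.4 CPM in sh-SRSF3, below every control library, with 7 of the 9 under 1 CPM and SPI1 at 0.

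**Figure D2:**
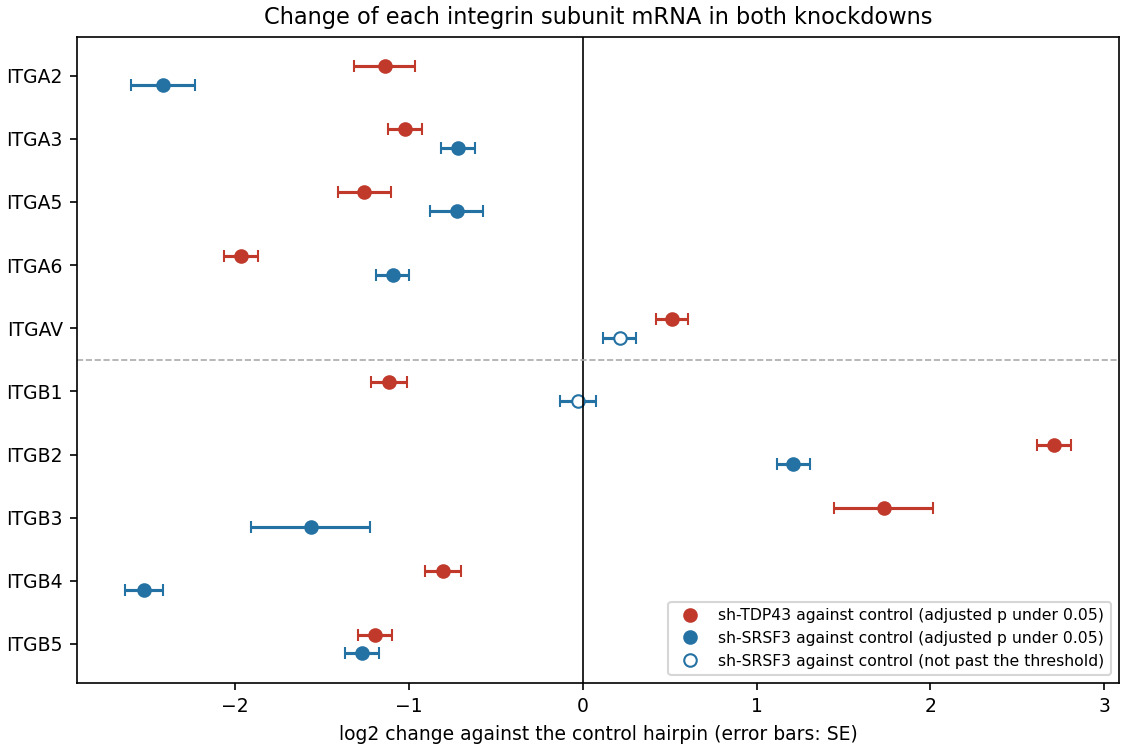
Log2 change of each integrin subunit mRNA against sh-control (horizontal axis) in sh-TDP43 (red) and sh-SRSF3 (blue), with bars of 1 SE from the edgeR fit and open circles where the adjusted p was 0.05 or more. ITGB3 lies on opposite sides of 0, at 1.73 and −1.57, and ITGB1 moves from −1.12 to −0.03. Both comparisons share the control libraries.

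Since both knockdowns were set against the same controls, the difference between them was tested directly, as sh-SRSF3 against sh-TDP43. ITGB3 and ITGB4 were lower in sh-SRSF3, ITGB1 was higher, and ITGB5 showed no difference past the threshold. The test called 4 members higher and 5 lower, where 65.5% of all genes were called, 32.0% higher and 33.5% lower. Called changes reached 2-fold for 5 members and for 30.6% of all genes, and libraries did not overlap for 9 members and for 83.8% of all genes. The median over the members was −0.19, beside −0.04 over all genes. With upper-quartile scaling the calls over all genes went from 4801 higher and 5041 lower to 3378 higher and 6451 lower, with the median over all genes at −0.29.

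ITGB3 differed most, at 206 and 226 reads in sh-TDP43 and 14 and 27 reads in sh-SRSF3, a 9.84-fold difference (log2 change −3.30, SE 0.32, edgeR quasi-likelihood adjusted p = 7.65e-07). ITGB4 was lower by a log2 change of −1.72 (SE 0.11, adjusted p = 1.07e-08), ITGB2 by −1.50 (SE 0.09, adjusted p = 1.17e-08) and ITGA2 by −1.28 (SE 0.18, adjusted p = 2.46e-05). ITGB1 was higher in sh-SRSF3, at 995 and 1016 CPM against 516 and 430 CPM, a log2 change of 1.09 (SE 0.10, adjusted p = 5.57e-07). ITGA6 was higher too, with a log2 change of 0.87 (SE 0.09, adjusted p = 1.96e-06). Each of these differences was larger than the spread between libraries.

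The other differences were small or rested on single libraries. ITGA3 differed by 0.30 (SE 0.10, edgeR quasi-likelihood adjusted p = 0.014), but by adjusted p = 0.106 without the second sh-TDP43 library and 0.161 without the first sh-SRSF3 library. ITGA5 differed by 0.53 (SE 0.15, adjusted p = 0.0073), with adjusted p = 0.0656 without the first sh-TDP43 library and a difference of 0.28 (adjusted p = 0.162) without the second sh-SRSF3 library. For ITGAV the difference was −0.30 (SE 0.09, adjusted p = 0.0114), with adjusted p = 0.0504 without the second sh-TDP43 library and a difference of −0.20 (adjusted p = 0.183) without the first sh-SRSF3 library. With upper-quartile scaling ITGA3 (0.06, adjusted p = 0.632) and ITGA5 (0.28, adjusted p = 0.122) no longer passed. ITGB5 was at 72.1 and 64.7 CPM in sh-TDP43 and 67.9 and 62.1 CPM in sh-SRSF3, with overlapping libraries and a log2 difference of −0.07 (SE 0.10, adjusted p = 0.522). With upper-quartile scaling the ITGB5 difference was −0.32 (adjusted p = 0.00954), beside the all-gene median of −0.29.

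The changes altered the make-up of the integrin mRNA pool. Summed over 18 alpha subunit genes, the level was 244 and 266 CPM per kilobase in sh-control, 122 and 123 in sh-TDP43 and 146 and 144 in sh-SRSF3, and the 5 alpha members made up 93.3% to 96.7% of it. Summed over 8 beta subunit genes, it was 270 and 271 CPM per kilobase in sh-control, 191 and 181 in sh-TDP43 and 207 and 212 in sh-SRSF3. The 5 beta members made up at least 99.8% of the beta sum in each library. Both sums were thus lower in every knockdown library than in every control library, and the alpha sum was lower by more than the beta sum.

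Within the beta sum, ITGB1 held 65.1% and 61.1% in sh-control. Its share was 44.8% and 39.5% in sh-TDP43 and 79.9% in each sh-SRSF3 library. How reads shared with ITGB1P1, a pseudogene copy, were counted was not examined. They could alter the level of ITGB1 and the shares and ratios taken from it. ITGB2 held 3.23% and 3.25% in sh-control, 29.3% and 32.6% in sh-TDP43 and 9.23% and 10.2% in sh-SRSF3. In sh-TDP43, therefore, the leukocyte beta subunit was the second largest part of the beta pool, while in sh-SRSF3 the pool was mostly ITGB1. ITGB4 held 22.1% and 26.8% in sh-control, 19.2% and 21.5% in sh-TDP43 and 5.69% and 5.26% in sh-SRSF3. ITGB5 held between 4.55% and 9.35% in all 6 libraries, and ITGB3 never more than 0.76%.

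Within the alpha sum, ITGA3 held between 42.4% and 51.6% in every library, and its groups overlapped. ITGA6 went from 21.5% and 21.7% in sh-control to 11.5% in each sh-TDP43 library and 18.5% and 17.2% in sh-SRSF3. ITGAV held 4.57% and 4.22% in sh-control, 13.1% and 13.0% in sh-TDP43 and 8.3% and 9.63% in sh-SRSF3. ITGA2 held 9.81% and 14.2% in sh-control and 10.4% and 12.4% in sh-TDP43, which overlap, and 3.45% and 4.53% in sh-SRSF3. The share of ITGA5 overlapped between all groups, from 10.6% to 15.9%. These shares describe mRNA and not the receptors at the surface.

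**Figure D3:**
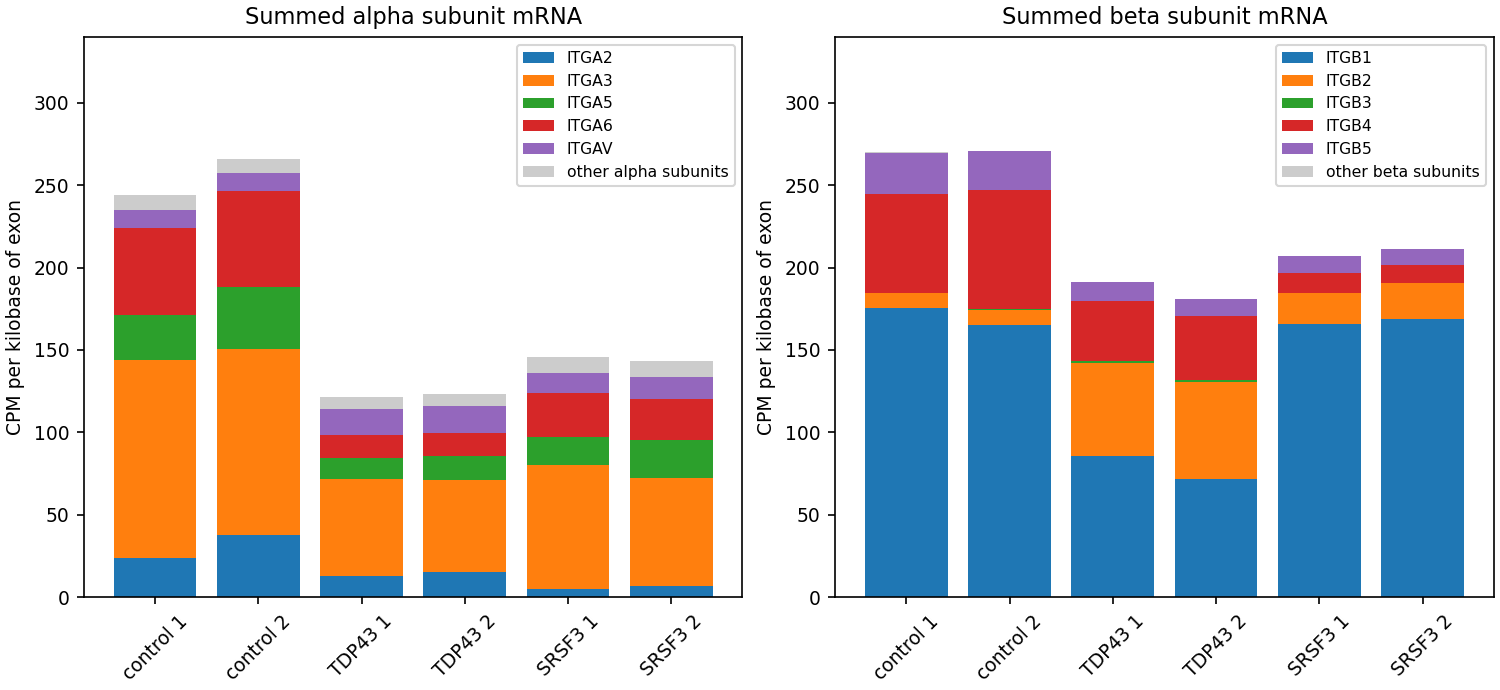
Stacked CPM per kilobase of exon for alpha subunit mRNAs (left) and beta subunit mRNAs (right) in each of the 6 hairpin libraries, with the remaining subunits in grey. The beta sum holds a visible ITGB2 layer in sh-TDP43 (29.3% and 32.6%) and is mostly ITGB1 in sh-SRSF3 (79.9% in each library).

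Ratios of known partners were taken per library from the levels per length. The ratio of ITGA6 to ITGB4 was 0.879 and 0.796 in sh-control, 0.381 and 0.364 in sh-TDP43 and 2.29 and 2.21 in sh-SRSF3. The ratio thus moved in opposite directions in the knockdowns, with ITGB4 above ITGA6 in the control and TDP43 libraries and below it in the SRSF3 libraries. The ratio of ITGAV to ITGB3 was 28.0 and 28.2 in sh-control, 12.5 and 11.7 in sh-TDP43, and 126 and 81.2 in sh-SRSF3, where ITGB3 had few reads. The ratio of ITGAV to ITGB5 was 0.442 and 0.48 in sh-control, 1.42 and 1.6 in sh-TDP43 and 1.15 and 1.44 in sh-SRSF3, so ITGAV exceeded this partner only in the knockdown libraries.

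With ITGB1 as the partner, the ratio of ITGA3 to ITGB1 was 0.683 and 0.682 in sh-control and 0.686 and 0.78 in sh-TDP43, where both subunits fell. It was 0.454 and 0.391 in sh-SRSF3, where ITGB1 did not pass the test. The ratio of ITGA2 to ITGB1 was 0.136 and 0.228 in sh-control, 0.147 and 0.214 in sh-TDP43 and 0.0304 and 0.0385 in sh-SRSF3. For ITGA5 the ratio to ITGB1 was 0.157 and 0.229 in sh-control, 0.151 and 0.203 in sh-TDP43 and 0.101 and 0.135 in sh-SRSF3. TDP43 knockdown libraries thus overlapped the controls in the ITGA2 and ITGA5 ratios, and SRSF3 knockdown libraries lay below them. The ratio of ITGA6 to ITGB1 was lower in both knockdowns, from 0.298 and 0.349 to 0.163 and 0.198 and to 0.163 and 0.146. The ratio of ITGAV to ITGB1 was 0.0635 and 0.0678 in sh-control, 0.185 and 0.225 in sh-TDP43 and 0.073 and 0.0818 in sh-SRSF3.

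**Figure D4:**
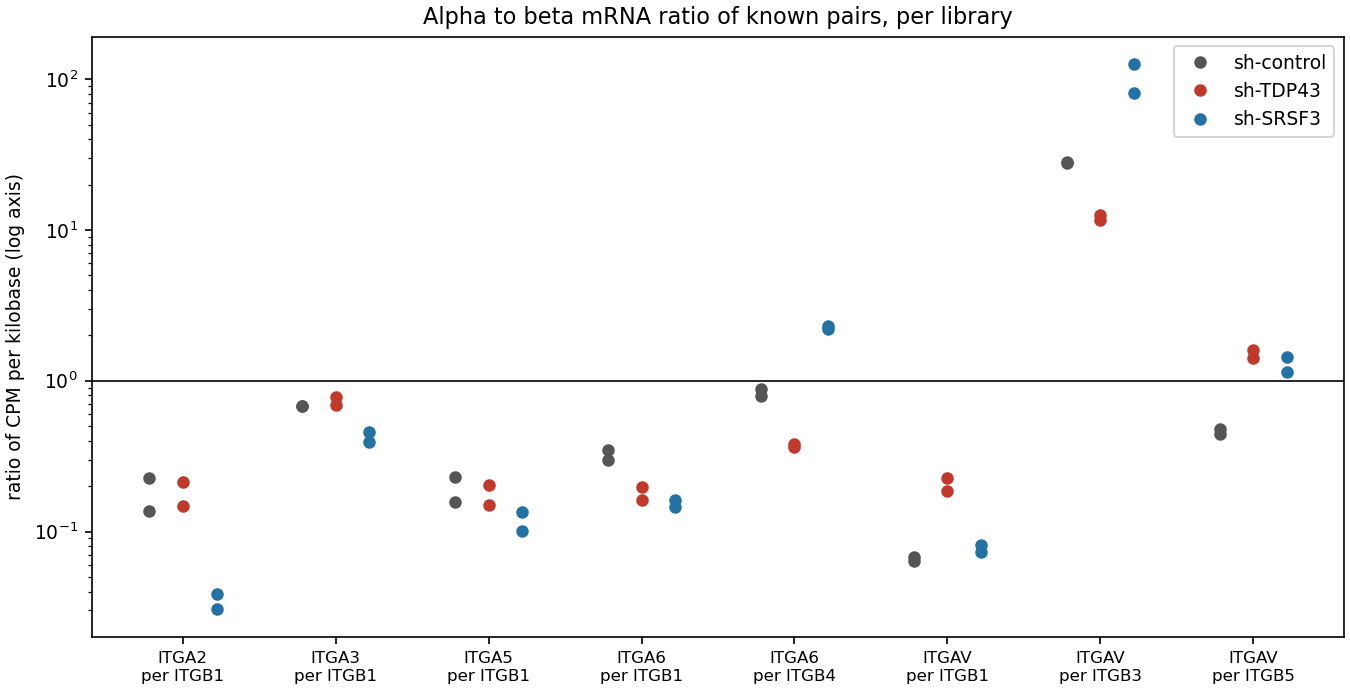
Ratio of alpha to beta mRNA (CPM per kilobase, log axis) for 8 known integrin pairs, with a point for each of the 2 libraries of sh-control (grey), sh-TDP43 (red) and sh-SRSF3 (blue). ITGA6 per ITGB4 lies below the controls in sh-TDP43 (0.381 and 0.364) and above 1 in sh-SRSF3 (2.29 and 2.21).

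The RIPs asked which integrin mRNAs were recovered with each tagged protein. With Flag-TDP43, ITGB3 and ITGB1 were recovered more than 4-fold over input, and ITGA5 was recovered least. Each arm had 1 library, so these ratios have no replicate check and no test. At least 2-fold over input were 2 members, where 15.9% of 10647 genes with an FPKM of at least 1 in either library were. At least 2-fold under input was 1 member, where 13.1% of all genes were. Ratios are log2 of RIP over input after adding 1 to each FPKM, which understates the ratio of low genes.

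ITGB1 was at 565 FPKM in the Flag-TDP43 RIP and 125 FPKM in the input, a log2 ratio of 2.16 at percentile 97.1 of all genes. A second deposited table of the same libraries, in a normalised signal of unstated unit, gave 1.94. ITGB1P1, a pseudogene copy of ITGB1, was at 613 FPKM in the RIP and 87.2 FPKM in the input. Reads shared between both copies could be split between them, so the FPKM of ITGB1 is uncertain. ITGB3 was at 9.33 FPKM in the RIP and 1.07 FPKM in the input, a log2 ratio of 2.32 at percentile 97.7, and 2.32 in the second table. In the authors' deposited table, without added FPKM, the log2 fold change of ITGB3 was 3.13 and that of ITGB1 was 2.17.

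Among the remaining beta subunits in the Flag-TDP43 RIP, ITGB5 was at 29.6 FPKM against 17.9 in the input (log2 ratio 0.69), ITGB4 at 23.8 against 37.6 (−0.64) and ITGB2 at 3.29 against 6.36 (−0.78). Of the alpha subunits, ITGA5 was at 6.90 FPKM against 24.5 in the input, a log2 ratio of −1.69 at percentile 4.04, and −1.22 in the second table. ITGA3 was at 33.7 against 61.7 FPKM (−0.85), ITGAV at 8.69 against 11.2 (−0.34), ITGA2 at 16.9 against 11.5 (0.52) and ITGA6 at 45.6 against 42.0 (0.12). ITGA6, with the largest fall in sh-TDP43, was thus near its input level, and its sign was the opposite in the second table (−0.17). The median log2 ratio was −0.11 over the members and 0.03 over all genes.

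With Flag-SRSF3, 6 members lay above input and 4 below it. ITGA2 and ITGB4, the members that fell most with SRSF3 knockdown, were at least 2-fold over input, where 14.7% of 10693 genes were. No member was at least 2-fold under input, where 6.82% of all genes were. ITGB4 was at 57.3 FPKM in the RIP and 26.5 FPKM in the input, a log2 ratio of 1.08 at percentile 87.5, and 0.90 in the second table. ITGA2 was at 24.4 against 9.42 FPKM, a log2 ratio of 1.29, but the second table gave −0.25, so its direction depended on the table. ITGA5 at 41.6 against 21.4 FPKM (0.93) and ITGA3 at 89.2 against 51.9 FPKM (0.77) were also above input.

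ITGB1 was at 99.9 FPKM in the Flag-SRSF3 RIP and 173 FPKM in the input, a log2 ratio of −0.79 at percentile 10.5. The second table gave −1.26, past 2-fold under input, and ITGB1P1 had −0.77 in the FPKM table. ITGA6 (28.9 against 42.0 FPKM, −0.53), ITGAV (8.31 against 12.2, −0.50) and ITGB3 (0.896 against 1.51, −0.41) were also below input. ITGB2 (7.09 against 4.76 FPKM, 0.49) and ITGB5 (22.3 against 17.6, 0.32) were above it, with 0.10 and −0.54 in the second table. The median log2 ratio was 0.41 over the members and 0.18 over all genes.

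**Figure D5:**
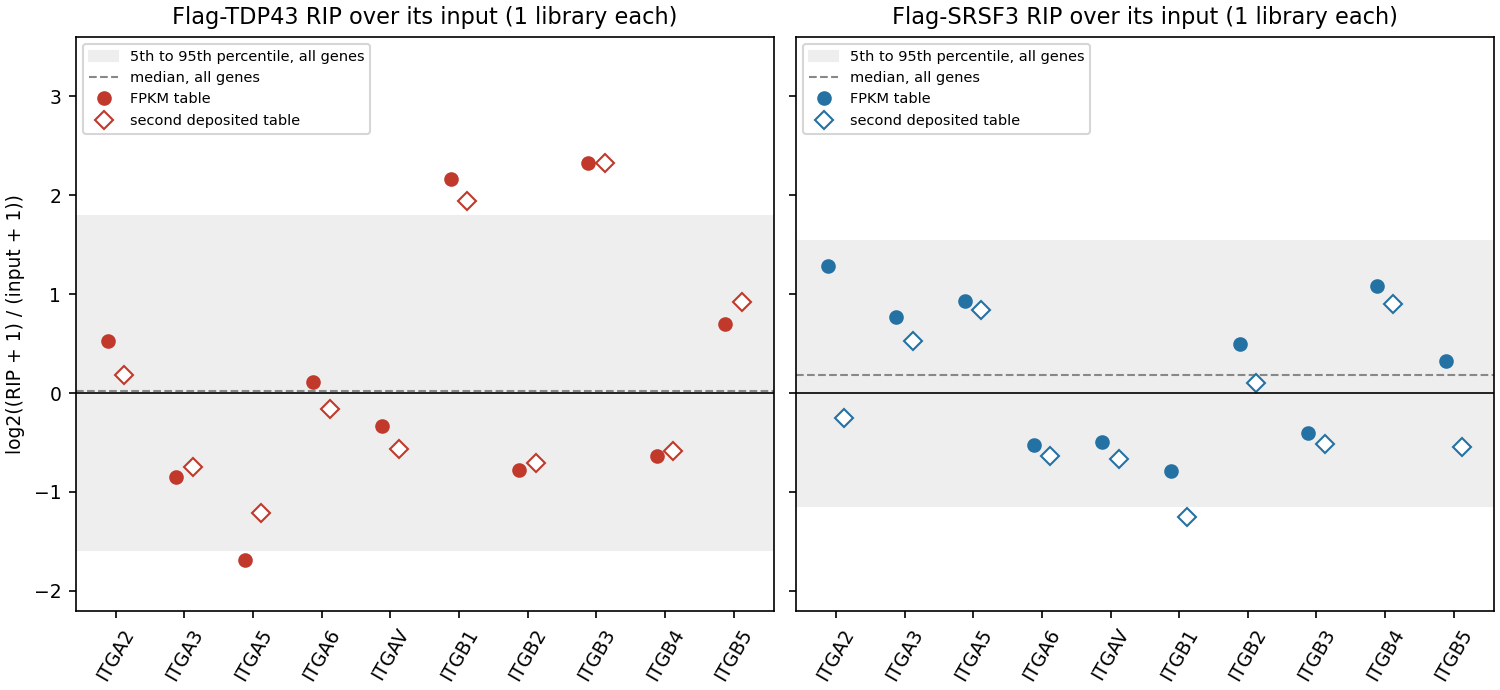
Log2 ratio of RIP over input with 1 added to each value (vertical axis) for each integrin subunit mRNA in the Flag-TDP43 (left) and Flag-SRSF3 (right) RIPs, with 1 library per arm; filled points are FPKM and open diamonds the second deposited table. The grey band spans the 5th to 95th percentile of all genes. ITGB1 and ITGB3 lie above the band with Flag-TDP43 (2.16 and 2.32) and below 0 with Flag-SRSF3 (−0.79 and −0.41).

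Set side by side, the Flag-TDP43 ratio exceeded the Flag-SRSF3 ratio by 2.95 on the log2 scale for ITGB1 and by 2.73 for ITGB3. It was lower by a log2 difference of −2.62 for ITGA5, −1.72 for ITGB4, −1.62 for ITGA3 and −1.27 for ITGB2. ITGA6 (0.64) and ITGAV (0.16) differed less. The table mattered for ITGB5, with 0.37 from FPKM and 1.47 from the second table, and for ITGA2, with −0.77 and 0.43. These differences rest on 4 libraries and were not tested.

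Recovery and response to knockdown were set side by side for the members as a description. Of the members recovered best with Flag-TDP43, ITGB1 fell (−1.12) and ITGB3 rose (1.73) in sh-TDP43. Over the 10 members, Pearson's r between the Flag-TDP43 log2 ratio and the log2 change in sh-TDP43 was 0.097 and Spearman's rho 0.03, beside a rho of 0.019 over 9403 genes. Between the Flag-SRSF3 log2 ratio and the log2 change in sh-SRSF3, r was −0.425 and rho −0.479, beside a rho of −0.172 over 9427 genes. These correlations run across genes, which share libraries and are not independent replicates.

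Other genes of integrin adhesion were described from lists drawn up by role, whose counts stand beside 44.8% of all genes called in sh-TDP43 and 66.9% in sh-SRSF3. Of 16 other integrin subunit genes, 9 were tested. In sh-TDP43, 0 were called higher and 2 lower (edgeR quasi-likelihood, adjusted p under 0.05), namely ITGA10, a collagen receptor subunit (log2 change −1.73, SE 0.21, adjusted p = 1.65e-05), and ITGA1, also one (−0.66, SE 0.19, adjusted p = 0.0106). ITGA1 lost its call without the second control library (−0.36, adjusted p = 0.145) and without either sh-TDP43 library (0.0718 and 0.0566). In sh-SRSF3, 2 were called higher and 4 lower. ITGA10 fell from 401 and 558 reads to 38 and 43 reads (log2 change −3.44), and ITGB8, a further partner of ITGAV, from 80 and 62 reads to 4 and 8 reads (−3.42). ITGB7 (−2.06, adjusted p = 0.0316) was also lower on 4 or fewer reads per knockdown library, a call that was lost without any single library except the first control. ITGAE, a partner of ITGB7, was higher (0.73), as was ITGA2B, the platelet partner of ITGB3, at 51 and 57 reads against 5 and 2 in sh-control. The median over the 9 tested was 0.21 in sh-TDP43 and −0.85 in sh-SRSF3, beside −0.00 and −0.03 over all genes.

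Of 26 cytoplasmic adaptor and kinase genes, 25 were tested, with 2 called higher and 7 lower in sh-TDP43 (median −0.14) and 5 higher and 13 lower in sh-SRSF3 (median −0.24). All genes had 20.7% called higher and 24.1% lower in sh-TDP43, and 32.5% and 34.4% in sh-SRSF3. The counts of the list were not tested against these shares, and no result about the list is drawn from them. In sh-TDP43 the falls were led by TNS4, a tensin that binds beta subunit tails (−1.71), the kinase SRC (−1.29) and FERMT2, the integrin activator kindlin-2 (−0.89), and the rises were LIMS2 (0.62) and CRK (0.58). In sh-SRSF3 TNS1 had a log2 change of −4.22, with 34.9 ± 1.36 CPM (SD, n = 2) in sh-control and 1.88 ± 0.148 (SD, n = 2) in the knockdown. TNS4 (−3.36) and TGFB1I1 (−2.72), a paxillin relative, followed. FERMT2 rose in sh-SRSF3 (1.31), as did CRK (0.96) and ITGB1BP1 (0.68), which binds the ITGB1 tail. Against each other, the knockdowns differed in FERMT2 by 2.20 (SE 0.10, edgeR quasi-likelihood adjusted p = 1.29e-09), at 322 ± 6.52 CPM in sh-SRSF3 and 70.3 ± 8.96 CPM in sh-TDP43 (SD, n = 2 each). TLN1, the talin that activates integrins, was not called in sh-TDP43 (0.22, adjusted p = 0.0748) and was higher in sh-SRSF3 (0.45, adjusted p = 0.000797).

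Of 28 ligand genes, 26 were tested, with 5 called higher and 12 lower in sh-TDP43 (median −0.31) and 4 higher and 18 lower in sh-SRSF3 (median −1.05). In sh-TDP43 the falls were led by TNC, tenascin-C (−2.27), and COL6A1 (−1.69), and the rises by EDIL3 (0.57), FN1, fibronectin (0.48), and FBN1 (0.42). Without the first control library FN1 (0.27, adjusted p = 0.0502) and FBN1 (0.28, adjusted p = 0.0809) were not called, and FBN1 was not called without the second sh-TDP43 library (adjusted p = 0.0536). In sh-SRSF3 laminin chains led the falls, with LAMB1 at −2.58, LAMA4 at −2.26 and LAMA5 at −2.17. LAMA5 was at 607 ± 23.6 CPM in sh-control, 656 ± 12.2 in sh-TDP43 and 135 ± 15.6 in sh-SRSF3 (SD, n = 2 each). EDIL3 (0.78), COL1A1 (0.69) and THBS1 (0.46) rose in sh-SRSF3. FN1, the ligand of ITGA5 with ITGB1, was at 309 ± 64.9 CPM in sh-control, 429 ± 2.54 in sh-TDP43 and 141 ± 6.89 in sh-SRSF3 (SD, n = 2 each), and was called lower in the latter (−1.13, SE 0.12, edgeR quasi-likelihood adjusted p = 1.85e-06).

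All 9 hemidesmosome and tetraspanin partners were tested, with 2 called higher and 4 lower in sh-TDP43 (median −0.06) and 1 higher and 7 lower in sh-SRSF3 (median −0.51). COL17A1, a hemidesmosome collagen that binds beside ITGB4, fell in sh-TDP43 (−1.16) and in sh-SRSF3 (−1.64). CD82, a tetraspanin that associates with integrins, fell in sh-TDP43 (−1.10) and in sh-SRSF3 (−2.90), from 119 ± 3.2 CPM in sh-control to 55.4 ± 7.99 and 15.9 ± 0.058 CPM (SD, n = 2 each). TSPAN4 (−1.43) fell in sh-TDP43, where DST (0.78) and CD63 (0.40) rose, and CD9 (−1.32) fell in sh-SRSF3, where CD63 (0.25) was called higher. The CD63 call in sh-SRSF3 was lost with upper-quartile scaling (0.10, adjusted p = 0.382), and without the second control or either sh-SRSF3 library (adjusted p = 0.11, 0.101 and 0.157).

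Of 9 membrane co-receptors, 0 were called higher and 4 lower in sh-TDP43 (median −0.34), led by the syndecan SDC2 (−2.15), the caveolin CAV1 (−1.65) and the urokinase receptor PLAUR (−0.63). In sh-SRSF3, 2 were higher and 6 lower (median −0.59). SLC3A2, the CD98 heavy chain that binds beta subunit tails, went from 247 ± 21.1 CPM (SD, n = 2) in sh-control to 1405 CPM in sh-SRSF3 (mean of 2), a log2 change of 2.51 (SE 0.10, edgeR quasi-likelihood adjusted p = 3.13e-10). CAV1 was also higher in sh-SRSF3 (0.57), and SDC1 (−1.99), PLAUR (−1.84) and SDC4 (−1.06) were lower. Of 9 genes of integrin traffic, 8 were tested, with 3 called higher and 2 lower in sh-TDP43 (median 0.07) and 4 higher and 4 lower in sh-SRSF3 (median 0.03). Without the first control library SNX27 (0.28, adjusted p = 0.0541) and RAB11A (0.17, adjusted p = 0.213) were not called higher in sh-TDP43, which left 1 of those 3. SNX17, which recycles beta1 integrins, was higher in sh-TDP43 (0.48) and in sh-SRSF3 (0.83). ARF6 was lower in both (−0.77 and −0.45), while RAB21, which binds alpha subunit tails, was lower in sh-TDP43 (−0.65) and higher in sh-SRSF3 (0.52).

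Between the knockdowns, the lists differed as follows in sh-SRSF3 against sh-TDP43, where 65.5% of all genes were called and their median was −0.04. The other integrin subunits had 2 called higher and 5 lower (median −1.03), with ITGB8 at −3.39 and ITGA2B at 2.25. Of the 5, ITGA7 (adjusted p = 0.0507) and ITGB7 (adjusted p = 0.0608) were not called without the second sh-TDP43 library. The adaptors and kinases had 8 higher and 10 lower (median 0.06), with TNS1 at −3.98, TGFB1I1 at −2.26 and VCL, vinculin, at −1.97. The ligands had 3 higher and 12 lower (median −0.28), with LAMA5 at −2.28 and COL1A1 at 1.07. The hemidesmosome and tetraspanin partners had 1 higher and 6 lower (median −0.48), with CD82 at −1.80 and DST at −0.80. The co-receptors had 3 higher and 5 lower (median −0.66), with SLC3A2 at 2.65, CAV1 at 2.22 and SDC2 at 1.82. The traffic genes had 4 higher and 3 lower (median 0.24).

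The genes whose levels over the 6 hairpin libraries lay nearest to those of ITGB1 were BCL2L11, GEM and CLSPN, by Euclidean distance of centred log2 CPM (0.127, 0.135 and 0.151). Each was lower in sh-TDP43 (BCL2L11 −1.28, GEM −1.10 and CLSPN −1.11) and did not pass the test in sh-SRSF3 (−0.10, −0.09 and −0.04). No member lay as near to ITGB1, the nearest being ITGA3 at 0.888. Among the members ITGA3 and ITGB5 were nearest to each other (0.559), as were ITGA2 and ITGB4 (0.631), which both fell most in sh-SRSF3. ITGB2 and ITGB3 stood farthest from any other member, each with ITGAV as its nearest at 2.2 and 2.27.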

How the data were processed

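RNA was measured in 6 hairpin libraries and 4 RIP or input libraries of MDA-MB231 cells, grouped by sample title. Per the file headers, the deposited read counts per gene were made with featureCounts v1.4.6-p5 over exons, with no strand or read-pair option. For the RIPs the deposited values are FPKM, per the file headers, beside log2 fold changes computed by the authors. The second deposited table holds a normalised signal of unstated unit. The submitters' processing notes name GRCh37, Cufflinks, StringTie 1.3.0, HISAT2 2.0.5 and STAR 2.5.2a without a stated role. Count columns that match no label by name numbered 2 and were not used, so the group with both hairpins was left out and the planned fit has fewer libraries.

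Gene names came from the files for 27068 genes and a reference table for 89, and 588 had none. The test was that of edgeR 4.0.16 (R 4.3.3; filterByExpr, TMM scaling, two-sided quasi-likelihood F-test, Benjamini-Hochberg adjustment over all 15026 genes, calls at adjusted p under 0.05), with the 6 libraries in 1 fit, no covariates and 3 residual degrees of freedom. The script was tested on simulated data. Levels are TMM-scaled CPM, or CPM per kilobase (1000 bases) of exon. Within groups, libraries differed beyond sampling noise (chi-square per gene 24.6 in sh-control, 13.0 in sh-TDP43 and 12.0 in sh-SRSF3), so none was merged. RIP ratios used FPKM plus 1. For the RIP and input libraries, the steps of low FPKM values fitted best at depths of 55.3 to 57.0 times 1e6 reads. At most 54.8% of low values came out whole within 0.03, and only a limited range of depths was searched. The depth was therefore not settled. RIP tables list 60675 genes.

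Members and gene lists were chosen with earlier results of these data known. Named genes are all 10 members, up to 3 called genes per list, direction and comparison, and the 3 genes nearest to ITGB1, except that some list genes are not reported here. TLN1, FN1 in sh-SRSF3 and markers beside a result fall outside this rule and were chosen after their values were seen. Marker lists covered mesenchymal breast line, luminal, leukocyte, fibroblast (21.8 to 42.0 CPM summed) and platelet (1.83 to 3.56 CPM summed) genes. Alternatives were DESeq2 1.42.0, upper-quartile scaling, no filter on low counts, a replicate block, only the 2 groups compared, each library left out, and for the RIPs a pseudocount of 0.1, no filter and the second table.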

Additional observations from a re-analysis of the deposited data

How the results depend on the processing

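In sh-TDP43 against sh-control each of the 10 members kept its direction and call under the 11 alternative fits. In sh-SRSF3 against sh-control the members called higher were 2 instead of 1 with DESeq2, with the replicate block and without the first sh-SRSF3 library, since ITGAV then passed (adjusted p = 0.0466, 0.0289 and 0.0389), and ranged from 1 to 2 over the left-out libraries. ITGB1 there ranged from −0.072 to 0.016, turning sign without the first control library (adjusted p = 0.918). In sh-SRSF3 against sh-TDP43 the members called higher were 2 instead of 4 with upper-quartile scaling, and ITGB5 ranged from −0.166 to 0.013, turning sign without the first sh-TDP43 library (adjusted p = 0.939). The cause was not tested. Genes called over all genes ranged from 4486 to 6576, 8749 to 9796 and 8268 to 10165 in the 3 comparisons when single libraries were left out, where a lone library is assumed to vary like the other groups. With the second RIP table, 0 members were at least 2-fold over Flag-SRSF3 input and 1 was at least 2-fold under it, with ITGA2 at −0.25.

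Replicate numbers were shared between groups, and deviations of same-numbered libraries correlated weakly, at 0.12, 0.075 and 0.088. Correlations over all genes cannot settle whether the numbers pair the libraries, since single genes may still share a replicate effect. With the replicate block 7672, 10565 and 10413 genes were called in the 3 comparisons, against 6728, 10045 and 9842 without it. The comparison of the group with both hairpins was not run. Precision is limited by 2 libraries per hairpin group, by 1 per RIP arm and by the low counts of ITGB3.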
